A study of Mus musculus with 6 samples.

Results

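The vitamin D receptor and the genes around it were followed as 7 named genes among the 54167 genes listed for RNA-seq of mouse colorectal tumors. They were taken by gene name alone: *Vdr*, its heterodimer partner *Rxra*, the hormone-making enzyme *Cyp27b1*, the hormone-degrading enzyme *Cyp24a1*, and the calcium transport genes *Trpv6*, *S100g* and *Atp2b1*. The tumors came from C57BL/6J mice of 2 genotypes, with 3 tumors each. *Trp53fl/fl* mice carry loxP-flanked *Trp53* on both chromosomes and no Cre, so that p53 is intact. *Pvillin-Cre* + *Trp53fl/fl* (*VP*) mice carry the same floxed alleles and Cre driven by the villin promoter, which is active in the epithelium of the intestine and leaves *Trp53* in stromal and immune cells. According to the methods, male mice of both genotypes received the carcinogen azoxymethane (AOM) at 8 weeks of age (10 mg/kg) and then 7-day courses of 2.5% DSS (dextran sulfate sodium, an irritant of the colon) in drinking water, and tumors were collected on day 98. The labels number the tumors of a genotype as replicates without stating that each came from its own mouse, so the p-values measure the spread between these samples.

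VDR is a nuclear receptor that binds the active hormone 1,25-dihydroxyvitamin D. It pairs with a retinoid X receptor such as RXRA and binds DNA at response elements built of hexamer half-sites, classically a direct repeat with a short spacer. In the intestine its textbook role is calcium absorption: TRPV6 is the calcium channel of the apical membrane, S100G (calbindin-D9k) carries calcium through the cytosol, and ATP2B1 (PMCA1) pumps it out on the basolateral side. CYP27B1 makes the active hormone from its circulating precursor. CYP24A1 breaks the hormone down and is the classical VDR target, induced in many tissues when the hormone is present.

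The letters of the start regions of *Vdr* and of the textbook target genes *Trpv6* and *S100g* are printed to show how many such half-sites they carry. They are RefSeq promoter sequences (GRCm38.p6), each the 250 bases before the annotated start, read 5′ to 3′ on the strand of the gene. Capitals mark half-sites, that is the hexamer AGGTCA, its variant AGTTCA, the hexamer GGGTCA or its variant GGTTCA on the printed strand or as the reverse complement. The *Vdr* stretch is chr15:97908297-97908546 (minus strand), the *Trpv6* stretch is chr6:41636406-41636655 (minus strand) and the *S100g* stretch is chrX:162964600-162964849 (minus strand).
Vdr: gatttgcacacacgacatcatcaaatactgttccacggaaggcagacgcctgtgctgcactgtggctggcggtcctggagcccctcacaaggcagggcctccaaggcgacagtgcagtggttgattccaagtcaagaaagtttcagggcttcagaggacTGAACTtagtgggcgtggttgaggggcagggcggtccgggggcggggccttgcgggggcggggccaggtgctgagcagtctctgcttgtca
Trpv6: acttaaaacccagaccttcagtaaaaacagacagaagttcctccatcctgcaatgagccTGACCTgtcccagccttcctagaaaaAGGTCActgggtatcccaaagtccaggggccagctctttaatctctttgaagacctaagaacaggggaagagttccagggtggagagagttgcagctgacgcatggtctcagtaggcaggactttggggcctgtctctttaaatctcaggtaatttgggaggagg
S100g: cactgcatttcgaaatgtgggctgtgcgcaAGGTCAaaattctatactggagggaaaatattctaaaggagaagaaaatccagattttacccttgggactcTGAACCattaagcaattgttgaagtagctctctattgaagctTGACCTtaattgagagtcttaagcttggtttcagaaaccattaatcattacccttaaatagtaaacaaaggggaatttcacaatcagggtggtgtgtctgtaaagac

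*Vdr* had 1 half-site, on the opposite strand, with its first printed base at -91 from the start. *Trpv6* had 2, an opposite-strand match at -191 and a same-strand match at -165. *S100g* had 3, at -220 on the same strand and at -149 and -107 on the opposite strand. RefSeq windows of 300 bases (250 before and 50 after the start) were found for 6 of the 7 genes, 8 windows in all, with 2 each for *Rxra* and *Atp2b1*. *Cyp24a1* had no entry. No half-site stood in either window of *Atp2b1*, the third calcium transport gene, or in 1 of the 2 windows of *Rxra*. A half-site stood in 5 of the 8 windows, against 43.7% of all 32851 windows. The direct repeat, here 2 half-sites in the same direction with 3 bases between them on either strand, stood in 0 of the 8 windows and in 0.0396% of all windows. The match of letters is a description of these windows and no evidence of binding. The *Vdr* window lies inside the span of the gene in GENCODE M21 (GRCm38), whose outermost start is further upstream.

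Expression was given by the authors as TPM, transcript abundances that are scaled to a common total and divided by transcript length, so levels can be compared between genes. The 6 columns summed to between 999964 and 1000067, and between 14857 and 15234 genes reached 1 TPM in a tumor. TPM keep no read numbers, so the depth of the libraries and the counting error of a value are unknown. *Trp53* itself ranged from 99.3 to 147.45 TPM in *Trp53fl/fl* tumors and from 27.83 to 38.45 TPM in *VP* tumors (limma adjusted p = 0.0207). *Cdkn1a*, the p53 target that encodes p21, ranged from 127.72 to 160.22 TPM and from 80.75 to 122.41 TPM (limma adjusted p = 0.317). All 12 epithelial marker genes were expressed in every tumor. Their summed level was 10500 to 10800 TPM in *Trp53fl/fl* tumors and 11800 to 12900 TPM in *VP* tumors, without overlap, and 10 of the 12 had the higher mean in *VP* tumors. The 10 neutrophil markers summed to 407 to 734 TPM and 1200 to 2030 TPM, and the 10 macrophage markers to 1190 to 1270 TPM and 1000 to 1370 TPM. In bulk tumors, fewer cells of a type and less RNA per cell cannot be told apart.

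Averaged over the 6 tumors, *Atp2b1* had the highest level at 25.4 TPM (20.16 to 33.94), followed by *Rxra* at 23.3 TPM (21.64 to 24.07), *Vdr* at 21.2 TPM (14.65 to 26.93), *S100g* at 17.2 TPM (7.47 to 24.82) and *Trpv6* at 10.4 TPM (4.16 to 14.61). The ranges of each neighbouring pair in this order overlapped, so these 5 genes were not separated as neighbours by their level. *Atp2b1* was the highest of the 7 in 3 tumors, and *Rxra*, *Vdr* and *S100g* in 1 each. Both enzymes of the hormone stood far below, with *Cyp27b1* at 0.183 TPM (0.03 to 0.46) and *Cyp24a1* at 0.00333 TPM (0 to 0.02), and they were the lowest 2 genes, in this order, in all 6 tumors. Neither enzyme reached 1 TPM in any tumor, and the other 5 genes did in all.

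**Figure D1:**
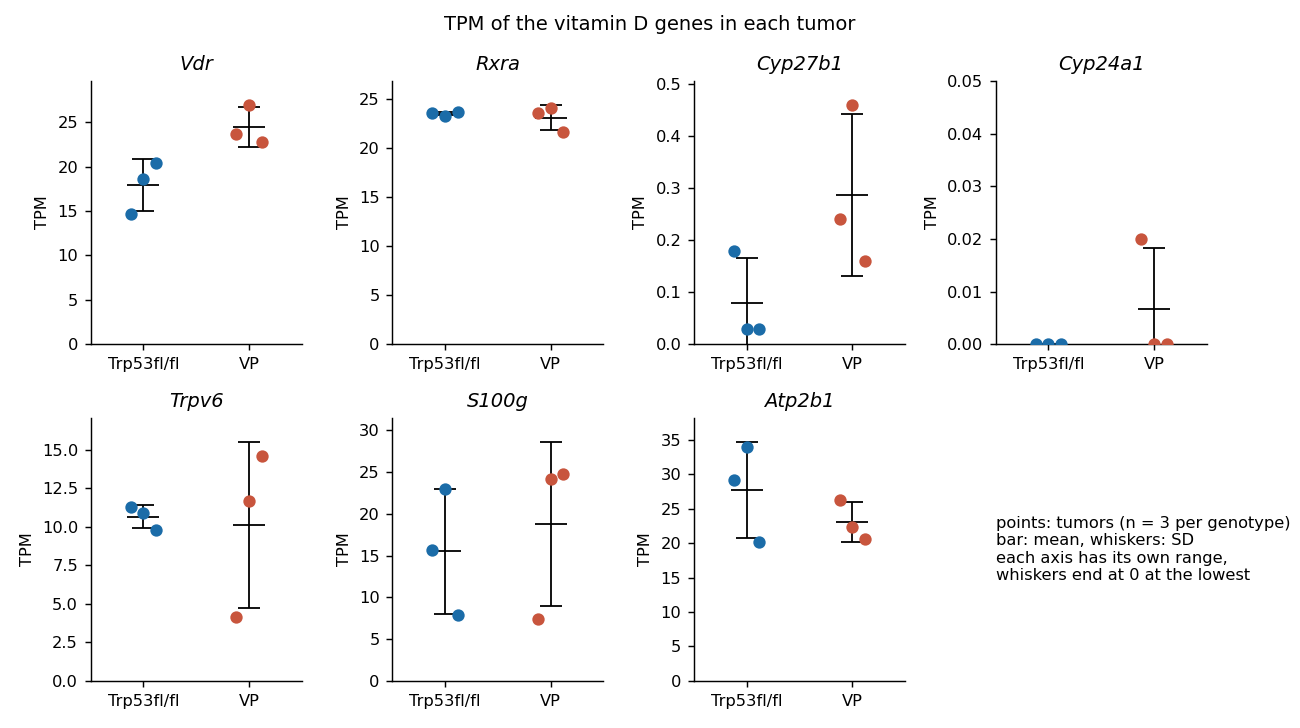
TPM (vertical axes, linear from 0, each with its own range) of the 7 vitamin D genes in 3 *Trp53fl/fl* and 3 *VP* tumors, with points for tumors, a bar for the mean and whiskers for the SD. *Vdr* is the only one of the 5 genes above 1 TPM whose *VP* tumors (22.72 to 26.93) all lie above the *Trp53fl/fl* tumors (14.65 to 20.4), while *Cyp24a1* is listed at 0 in 5 of the 6 tumors.

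The comparison of the genotypes asked whether transcripts of the receptor and its target genes differ when p53 is removed from the epithelium. None of the 5 tested members passed the limma adjustment (adjusted p-value under 0.05), and the other 2 were too low to be tested. Of all 15117 genes tested, 25 passed (0.165%), with 12 higher (0.0794%) and 13 lower (0.086%) in *VP* tumors. *Vdr* was the member with the clearest separation, with higher values in *VP* tumors. Fold changes are on the log2(TPM + 1) scale, *VP* minus *Trp53fl/fl*, which understates the change of low genes, and the median over all genes tested was -0.07. Above 0 stood 39.2% of all genes tested and 2 of the 5 tested members.

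*Vdr* (ENSMUSG00000022479, chromosome 15 from 97854425 to 97910630, minus strand, GRCm38) was at 14.65, 18.58 and 20.4 TPM in *Trp53fl/fl* tumors and at 23.67, 26.93 and 22.72 TPM in *VP* tumors. All *VP* tumors lay above all *Trp53fl/fl* tumors. The means were 17.9 ± 2.94 TPM (SD, n = 3) and 24.4 ± 2.21 TPM (SD, n = 3), a difference larger than either SD. The log2 fold change was 0.44 (SE 0.15, 95% interval 0.08 to 0.80). Its limma p-value was 0.0228 before adjustment and 0.341 after Benjamini-Hochberg adjustment, and it ranked 1001 by p-value among the genes tested. The exact permutation test gave a two-sided p of 0.1, the smallest that 3 tumors against 3 allow. Of all genes tested, 4.51% were higher in *VP* tumors at an unadjusted p-value under 0.05, and 6.03% were higher without overlap, and 1 of the 5 tested members passed each of these looser criteria. In either direction 19.3% of all genes, and 13.3% downward, had no overlap, and 0 members stood lower in this way.

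The summed epithelial markers stood higher in *VP* tumors, as *Vdr* did, but not all markers rose alike. Of the 12, 3 were higher at an unadjusted limma p-value under 0.05, against 4.51% of all genes tested. *Epcam* (0.003) and *Krt18* (0.004) hardly differed on the log2 scale, whereas *Krt19* (0.386) and *Lgals4* (0.475) did more. The sum is weighted to the abundant markers. Per 1000 TPM of the 12 markers in the same tumor, a ratio chosen after the values were seen, *Vdr* was at 1.4, 1.72 and 1.9 in *Trp53fl/fl* tumors and at 2.0, 2.09 and 1.77 in *VP* tumors. The groups then overlapped, since *VP* replicate 3 lay below *Trp53fl/fl* replicate 3, and the means were 1.67 ± 0.253 (SD, n = 3) and 1.95 ± 0.168 (SD, n = 3). With each tumor centred on the mean log2 value of these markers, the log2 fold change of *Vdr* was 0.27 (limma unadjusted p = 0.139, adjusted p = 0.312). Centring shifts all genes of a tumor alike, and the median of all genes tested moved from -0.07 to -0.245. Dividing by the marker sum likewise lowers every gene in *VP* tumors relative to *Trp53fl/fl* tumors. Neither step is therefore a separate result about *Vdr*, and the part of epithelial content in its difference was not tested. The neutrophil markers also stood higher in *VP* tumors, 10 of 10 by their means and 7 at an unadjusted limma p-value under 0.05, and their part in the *Vdr* difference was not tested.

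**Figure D2:**
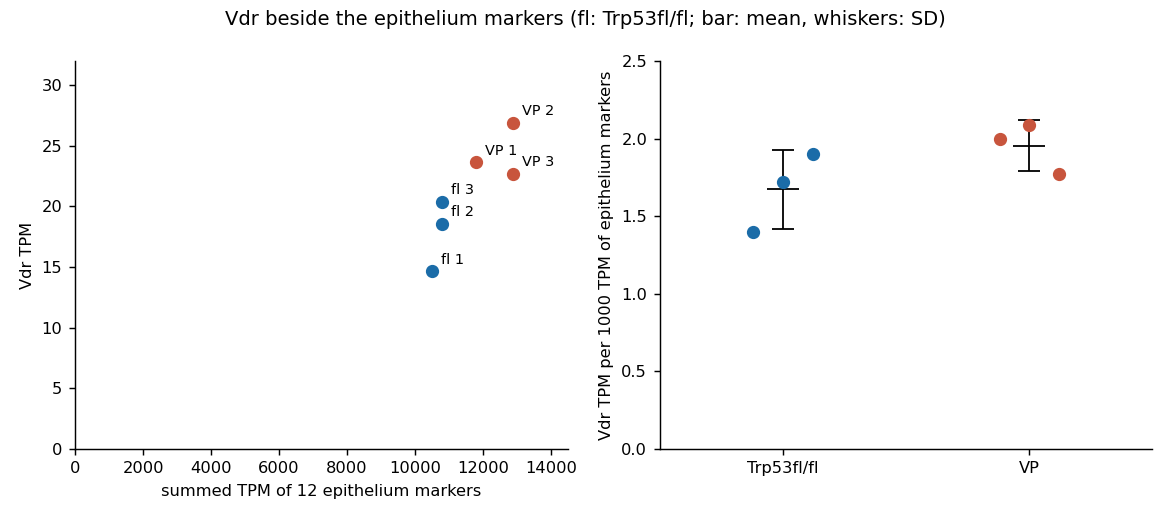
Left, *Vdr* TPM (vertical axis) against the summed TPM of 12 epithelium markers (horizontal axis), 1 point per tumor; right, *Vdr* TPM per 1000 TPM of these markers by genotype, with a bar for the mean and whiskers for the SD. The *VP* tumors lie above and to the right of the *Trp53fl/fl* tumors on the left, and on the right *VP* replicate 3 (1.77) lies within the range of the *Trp53fl/fl* tumors (1.4 to 1.9).

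*Rxra* (ENSMUSG00000015846, chromosome 2 from 27676440 to 27762957, plus strand) was at 23.54, 23.27 and 23.63 TPM in *Trp53fl/fl* tumors and at 23.54, 24.07 and 21.64 TPM in *VP* tumors. It was the steadiest member, with the highest tumor 1.11-fold over the lowest, against 1.84-fold for *Vdr*. Its log2 fold change was -0.03 (SE 0.10, 95% interval -0.27 to 0.22, limma adjusted p = 0.934), and the sign turned with median-of-ratios rescaling (0.04) and quantile normalization (0.06). Per 1000 TPM of the epithelial markers, *Rxra* was at 2.25, 2.15 and 2.2 in *Trp53fl/fl* tumors and lower in every *VP* tumor, at 1.99, 1.87 and 1.68. The marker sum was higher in every *VP* tumor, so a gene of level TPM becomes lower in this ratio. The separation is therefore no result about *Rxra*, and the share of all genes separated in this way was not computed. *Rxrb*, a further partner of VDR, averaged 31.7 TPM, and *Rxrg* did not exceed 0.13 TPM in any tumor.

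*Cyp27b1* (ENSMUSG00000006724, chromosome 10 from 127048250 to 127053006, plus strand) was listed at 0.18, 0.03 and 0.03 TPM in *Trp53fl/fl* tumors and at 0.24, 0.46 and 0.16 TPM in *VP* tumors. The genotypes overlapped, because *Trp53fl/fl* replicate 1 lay above *VP* replicate 3. *Cyp24a1* (ENSMUSG00000038567, chromosome 2 from 170482708 to 170497145, minus strand) was listed at 0.02 TPM in *VP* replicate 1 and at 0 in the other 5 tumors. Neither gene passed the filter of at least 1 TPM in at least 3 tumors, so neither was tested, and no fold is given. Values this low, with 2 decimals and no read numbers, do not separate the genotypes.

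The calcium transport genes spread widely within a genotype. *Trpv6* (ENSMUSG00000029868, chromosome 6 from 41620624 to 41636405, minus strand) was at 11.3, 10.91 and 9.81 TPM in *Trp53fl/fl* tumors and at 4.16, 11.67 and 14.61 TPM in *VP* tumors. The *VP* tumors lay on both sides of the *Trp53fl/fl* tumors. The SD was 0.773 TPM in *Trp53fl/fl* tumors and 5.39 TPM in *VP* tumors (n = 3 each), and the log2 fold change was -0.21 (SE 0.39, 95% interval -1.12 to 0.70, limma adjusted p = 0.832). Without *VP* replicate 1, the lowest tumor, it was 0.27 (limma adjusted p = 0.575).

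*S100g* (ENSMUSG00000040808, chromosome X from 162961992 to 162964599, minus strand) was at 15.67, 22.95 and 7.93 TPM in *Trp53fl/fl* tumors and at 7.47, 24.17 and 24.82 TPM in *VP* tumors. Each genotype held 1 tumor below 8 TPM and the groups overlapped. The log2 fold change was 0.21 (SE 0.52, 95% interval -1.01 to 1.42, limma adjusted p = 0.881). It turned to -0.18 without *Trp53fl/fl* replicate 3, to -0.05 without *VP* replicate 2 and to -0.07 without *VP* replicate 3. The ratio of *S100g* to *Trpv6* TPM was 1.39, 2.1 and 0.808 in *Trp53fl/fl* tumors and 1.8, 2.07 and 1.7 in *VP* tumors, with overlap.

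*Atp2b1* (ENSMUSG00000019943, chromosome 10 from 98914406 to 99026143, plus strand) was at 29.12, 33.94 and 20.16 TPM in *Trp53fl/fl* tumors and at 26.24, 22.34 and 20.58 TPM in *VP* tumors. The 3 *VP* values lay within the range of the *Trp53fl/fl* values. The log2 fold change was -0.23 (SE 0.20, 95% interval -0.71 to 0.24, limma adjusted p = 0.638), and it was -0.44 without *Trp53fl/fl* replicate 3 and -0.08 without *Trp53fl/fl* replicate 2. For *Trpv6*, *S100g* and *Atp2b1* the intervals include 0 and are wide enough to include differences of the size seen for *Vdr* in at least 1 direction.

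Of the transport genes outside the 7, the renal counterparts of these proteins were near 0. *Trpv5*, the renal relative of *Trpv6*, did not exceed 0.06 TPM, and *Calb1*, which encodes calbindin-D28k, did not exceed 0.12 TPM. Of 12 markers of the small intestinal enterocyte, 6 passed the filter, among them *Slc5a1* at 22.46 to 49.06 TPM, 9 had the higher mean in *VP* tumors, and *Fabp1* alone was listed at 0 in all tumors. The list summed to 46.3 to 53.4 TPM in *Trp53fl/fl* tumors and 52.1 to 94.6 TPM in *VP* tumors. The 10 mature colonocyte markers, for the tissue in which these tumors arise, summed to 1480 to 1920 TPM and 1200 to 2020 TPM.

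The list for calcium, phosphate and zinc transport held 20 genes with *Trpv6*, *S100g* and *Atp2b1* among them, and 16 were tested. None passed the adjustment. At an unadjusted p-value under 0.05, 2 stood higher and 1 lower in *VP* tumors, where the share over all genes in either direction was 12.5%, and the median log2 fold change was 0.04. *Slc34a2*, a sodium-dependent phosphate cotransporter, was at 3.1, 3.99 and 4.95 TPM in *Trp53fl/fl* tumors and at 9.08, 7.51 and 6.48 TPM in *VP* tumors, with a fold change of 0.80 on the log2 scale (limma adjusted p = 0.269). *Cldn2*, a claudin that forms cation pores in tight junctions and is a known VDR target, was at 159.63, 111.92 and 87.96 TPM and at 248.55, 206.81 and 172.53 TPM (0.83, limma adjusted p = 0.301). Both were higher in every *VP* tumor than in any *Trp53fl/fl* tumor. Such separation was found upward for 6.03% and downward for 13.3% of all genes tested. It follows largely from naming the genes of smallest unadjusted p-value. *Slc20a2*, a further phosphate transporter, was lower in every *VP* tumor, with means of 39.5 ± 2.19 and 29.6 ± 7.27 TPM (SD, n = 3; log2 fold change -0.43, limma adjusted p = 0.394). *Calm2*, which encodes calmodulin, was abundant at a mean of 690.4 TPM over the 6 tumors, and its difference was -0.16 on the log2 scale (limma adjusted p = 0.521).

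**Figure D3:**
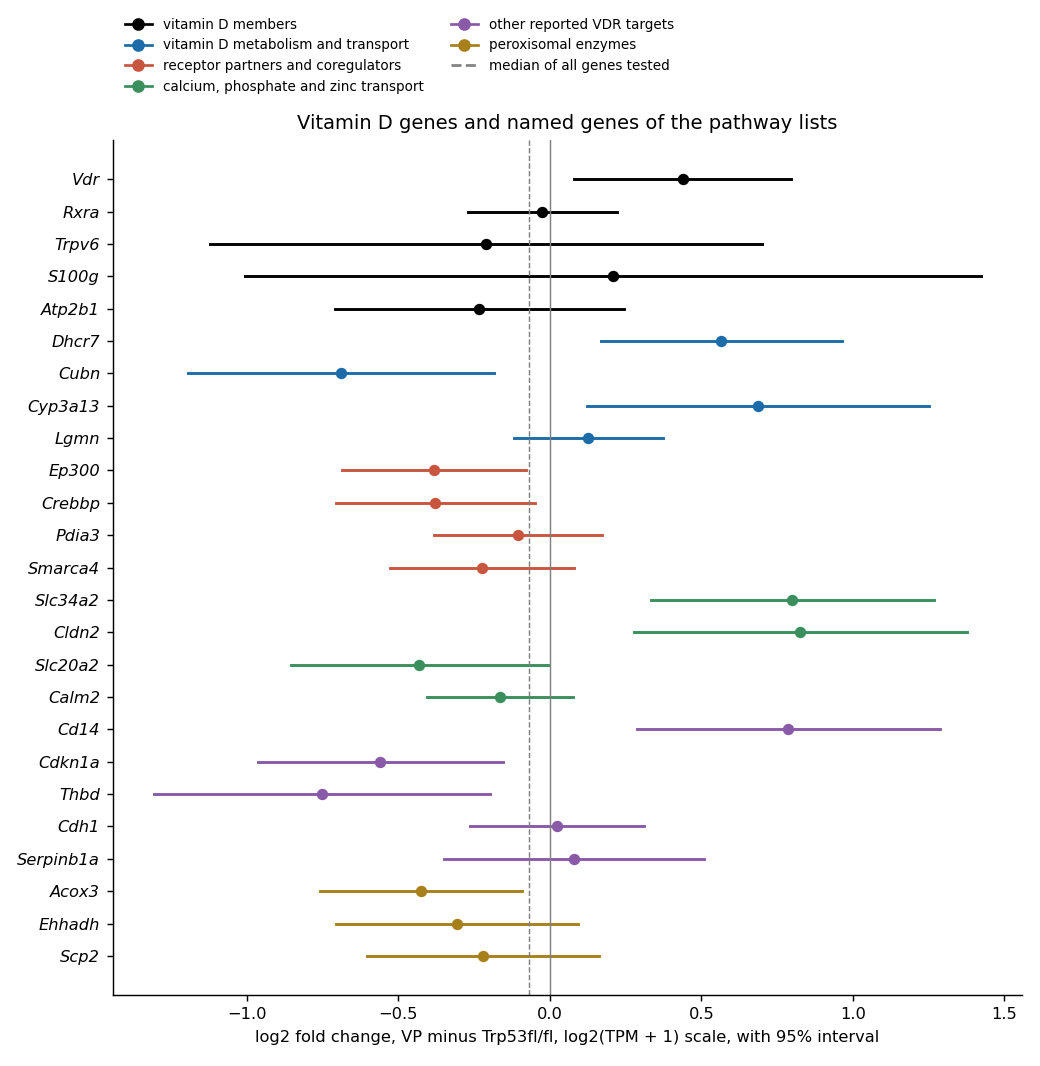
Log2 fold change, *VP* minus *Trp53fl/fl*, on the log2(TPM + 1) scale (horizontal axis) of the 5 tested vitamin D genes and of genes named from each list, with points for estimates, lines for 95% intervals and a dashed line at the median of all genes tested (-0.07). The interval of *Vdr* (0.08 to 0.80) lies above 0, and those of *Rxra*, *Trpv6*, *S100g* and *Atp2b1* include it.

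The genes of vitamin D metabolism and transport numbered 16, of which 8 were tested and none passed the adjustment. At an unadjusted p-value under 0.05, 2 stood higher (against 4.51% of all genes tested) and 1 lower (against 8%) in *VP* tumors. The median log2 fold change was 0.08. *Dhcr7*, the enzyme that turns the vitamin D precursor 7-dehydrocholesterol into cholesterol, was at 55.14, 62.13 and 71.74 TPM in *Trp53fl/fl* tumors and at 75.96, 111.69 and 95.48 TPM in *VP* tumors (log2 fold change 0.57, limma adjusted p = 0.312). *Cyp3a13*, a drug-metabolizing cytochrome of a family with near-identical members whose reads may be shared, was at 4, 5.27 and 5.76 TPM and at 11.97, 8.33 and 6.32 TPM (0.69, limma adjusted p = 0.341). *Cubn*, the receptor that takes up vitamin D bound to its carrier, was at 7.3, 8.09 and 7 TPM and at 4.42, 2.96 and 5.71 TPM (-0.69, limma adjusted p = 0.317). All 3 were separated between the genotypes, with *Dhcr7* and *Cyp3a13* higher and *Cubn* lower in *VP* tumors. Of all genes tested, 6.03% were higher and 13.3% lower without overlap. The 3 were named for the smallest unadjusted p-values of the list, so their separation follows largely from this choice. *Lgmn*, which encodes the protease legumain, averaged 140.3 TPM (0.13, limma adjusted p = 0.621), and *Cyp27a1*, a 25-hydroxylase, averaged 42.7 TPM.

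The low genes of this list included the hormone system around the kidney and the carrier protein. *Cyp2r1*, the main 25-hydroxylase, was at 0.82 to 1.92 TPM, while *Gc*, the vitamin D binding protein, *Lrp2*, *Kl*, *Casr* and *Cyp3a11* stayed below 1 TPM in all tumors. *Fgf23*, the bone hormone that lowers active vitamin D, was listed at 0.04, 0 and 0.14 TPM in *Trp53fl/fl* tumors and at 0.37, 1.11 and 0.51 TPM in *VP* tumors. It failed the filter and was not tested.

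Of 19 receptor partners and coregulators, counting *Vdr* and *Rxra*, 18 were tested and none passed the adjustment. A log2 fold change above 0 was found for 2 of the 18, against 39.2% of all genes tested, and the median was -0.13, against -0.07 over all genes. At an unadjusted p-value under 0.05, *Vdr* was higher and 2 genes lower in *VP* tumors, where 8% of all genes tested were lower. These were the paralogous histone acetyltransferases *Ep300*, at 24.24, 28.78 and 24.43 TPM in *Trp53fl/fl* tumors and 19.74, 21.36 and 17.6 TPM in *VP* tumors (log2 fold change -0.38, limma adjusted p = 0.34), and *Crebbp*, at 7.85, 8.4 and 7.45 TPM and 5.56, 6.54 and 5.47 TPM (-0.38, limma adjusted p = 0.358). Both were lower in every *VP* tumor, as were 13.3% of all genes tested, which follows largely from their choice by smallest unadjusted p-value. *Pdia3*, a disulfide isomerase also described as a membrane receptor of the hormone, was the most abundant at 418.9 TPM (-0.11, limma adjusted p = 0.719), followed by *Smarca4*, a chromatin remodeler, at 70 TPM (-0.23, limma adjusted p = 0.496).

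The list of other reported VDR targets held 26 genes, of which 23 were tested and none passed the adjustment. At an unadjusted p-value under 0.05, 2 stood higher (against 4.51% of all genes tested) and 2 lower (against 8%) in *VP* tumors. A log2 fold change above 0 was found for 16 of the 23, against 39.2% of all genes, and the median was 0.11, against -0.07. *Cd14*, a coreceptor for bacterial lipopolysaccharide, was at 118.26, 87.21 and 109.62 TPM in *Trp53fl/fl* tumors and at 134.12, 227.99 and 191.9 TPM in *VP* tumors (log2 fold change 0.79, limma adjusted p = 0.287). *Cd14* is also expressed by myeloid cells. The neutrophil markers stood higher in *VP* tumors, while the summed macrophage markers overlapped (1190 to 1270 TPM in *Trp53fl/fl* and 1000 to 1370 TPM in *VP* tumors). The part of myeloid cells in the *Cd14* difference was not tested. *Thbd*, which encodes thrombomodulin, was at 31.04, 35.68 and 27.96 TPM and at 12.5, 19.91 and 24.25 TPM (-0.75, limma adjusted p = 0.317). The other 2 genes were *Nod2*, a sensor of bacterial cell walls (0.64, limma adjusted p = 0.341), and *Cdkn1a* (-0.56, limma adjusted p = 0.317), itself a p53 target. The most abundant, *Cdh1* (E-cadherin) at 399.2 TPM and *Serpinb1a* at 224.8 TPM, differed by 0.02 and 0.08 on the log2 scale (limma adjusted p = 0.946 and 0.867).

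**Figure D4:**
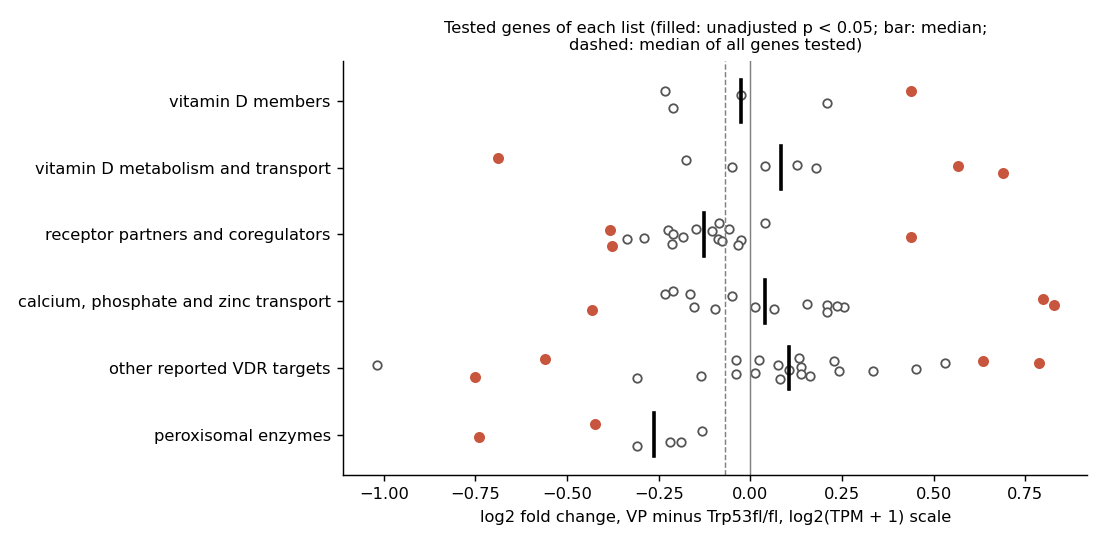
Log2 fold change, *VP* minus *Trp53fl/fl*, on the log2(TPM + 1) scale (horizontal axis) of every tested gene of the vitamin D genes and of 5 lists (rows, some genes in more than 1), filled where the unadjusted limma p-value is under 0.05, with a bar for each median and a dashed line at the median of all genes tested. List medians lie between -0.26 for the peroxisomal enzymes and 0.11 for other reported VDR targets.

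The 7 peroxisomal enzymes that the study ties to VDR were chosen by it on these samples and give no independent evidence of direction. All 6 tested had a log2 fold change below 0 (median -0.26), as did 9187 of all 15117 genes tested (median -0.07), and none of the 6 passed the limma adjustment. *Acox3*, an acyl-CoA oxidase, was at 18.77, 19.85 and 24.01 TPM in *Trp53fl/fl* tumors and 13.59, 16.56 and 15.62 TPM in *VP* tumors, without overlap (-0.43, limma adjusted p = 0.335). Over the 5 lists without the 7 vitamin D genes, 66 of 80 genes were tested, 0 passed the adjustment, and 6 stood higher and 8 lower at an unadjusted p-value under 0.05. These were 21.2% of the 66, against 12.5% of all genes tested, and the median log2 fold change was -0.04, against -0.07.

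Between the 5 tested vitamin D genes, Pearson's r of log2(TPM + 1), given as a description over tumors of 2 genotypes, was 0.77 between *Trpv6* and *S100g*, which were both lowest in *VP* replicate 1, and -0.56 between *Vdr* and *Atp2b1*. Between *Vdr* and the other 3 it was -0.01 for *Rxra*, -0.19 for *Trpv6* and 0.05 for *S100g*.

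The genes most like each member were sought among 9176 genes with a mean of at least 10 TPM by the same r over the 6 tumors. They were picked as the highest of many values, so r is a description with no test. For *Vdr* they were *Clec2d* (0.983), *Gstt3* (0.978), *Ighv5-4* (0.977), *Nfu1* (0.975) and *Cdpf1* (0.974). All 5 were higher in every *VP* tumor, which follows largely from their choice by likeness to *Vdr* and is no separate result. *Clec2d*, which encodes a C-type lectin, ranged from 32.22 to 37.27 TPM in *Trp53fl/fl* tumors and from 38.25 to 40.47 TPM in *VP* tumors, a narrower span than that of *Vdr*. *Ighv5-4* is 1 of many alike immunoglobulin segments, whose reads may be shared. For *Trpv6* they were *H2-Eb1* and *H2-Aa* (both 0.998), which encode chains of class II antigen-presenting molecules. *H2-Eb1* was at 208, 189.95 and 167.8 TPM in *Trp53fl/fl* tumors and at 71.54, 201.44 and 268.19 TPM in *VP* tumors, lowest in *VP* replicate 1 and highest in *VP* replicate 3, as *Trpv6* was.

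For *S100g* the most alike genes were *Supt4a* (0.982), which encodes a transcription elongation factor, and *AW112010* (0.980). For *Atp2b1* they were *Larp4* and *Eif3m* (both 0.996), which encode an RNA-binding protein and a subunit of a translation initiation factor, and for *Rxra* they were *Ighv1-9* (0.994) and *Pdlim3* (0.990). *Rxra* was nearly level (21.64 to 24.07 TPM), and it and both like genes were lowest in *VP* replicate 3. There *Ighv1-9* was at 22.83 TPM, against 120.66 to 199.5 TPM in the other tumors. *Pdlim3* was at 11.51 TPM, against 16.63 to 21.92 TPM. *Ighv1-9* is also an immunoglobulin segment whose reads may be shared. An r of at least 0.95 was reached by 151 genes for *Atp2b1*, 25 for *Trpv6*, 17 for *Vdr*, 15 for *Rxra* and 6 for *S100g*.

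**Figure D5:**
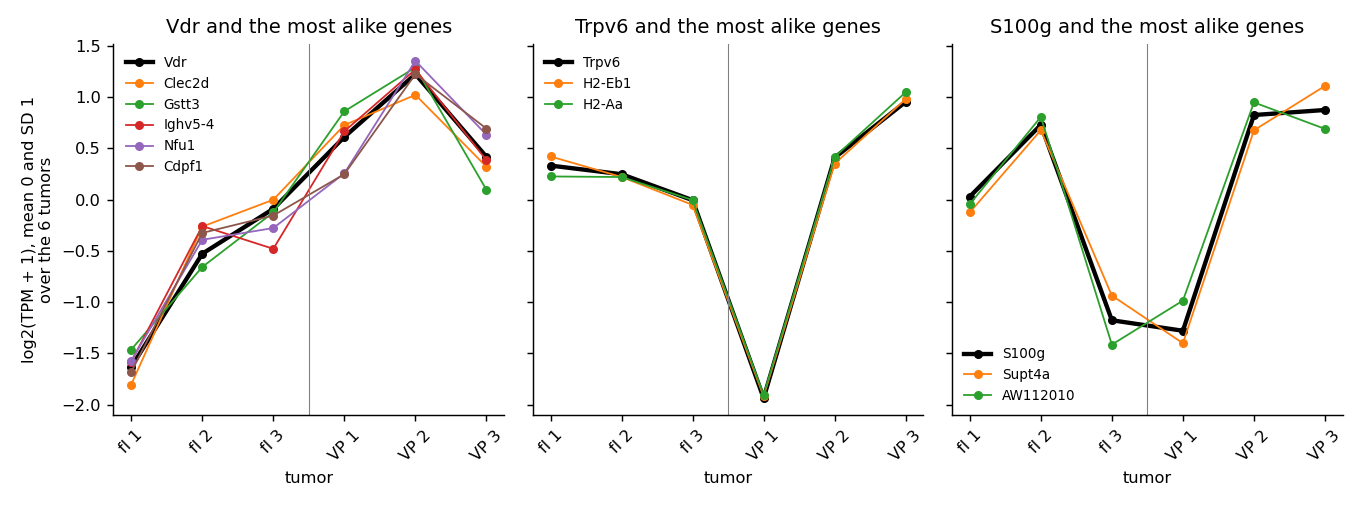
Log2(TPM + 1), set to mean 0 and SD 1 over the 6 tumors (vertical axis), of *Vdr*, *Trpv6* and *S100g* (thick lines) and of the genes most like each (thin lines) in each tumor (horizontal axis; fl, *Trp53fl/fl*), where lines only join the points of a gene. *Vdr* and its like genes are lowest in *Trp53fl/fl* replicate 1 and highest in *VP* replicate 2, *Trpv6* with *H2-Eb1* and *H2-Aa* is lowest in *VP* replicate 1.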

How the data were processed

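RNA-seq of 6 AOM/DSS colorectal tumors, 3 per genotype, was used. The authors deposited TPM per gene, with 2 decimals and without pooling, and the submitters' processing notes name HISAT2, StringTie and mm9. TPM depend on all other genes of a tumor, keep no depth and allow no count test. The deposited values carry no coordinates, so gene positions are from GENCODE M21 (GRCm38) and promoters from RefSeq (GRCm38.p6), matched by symbol, a build other than mm9. Columns were assigned through the codes in the sample labels, and 0 columns were left without a sample.

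From the deposited TPM, log2(TPM + 1) was tested where 3 or more tumors reached 1 TPM, with limma 3.58.1 in R 4.3.3 (empirical Bayes with trend, Benjamini-Hochberg adjustment over 15117 genes). Members below the filter are given as values. Exact permutation tests used scipy 1.17.1. On simulated data for 15117 genes, this fit recovered 95% of 100 genes with a log2 change of 1 and 100% of 100 genes with a change of 2, with 12 false calls among 207. Each simulated gene had the typical spread at its level. Genes with a wider spread and changes smaller than 1 were not simulated. The recovery of changes of the size seen for *Vdr* is therefore unknown, and the simulation does not make the absence of calls among the members conclusive.

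Beside the 7 genes, *Trp53* and *Cdkn1a*, the text names from each list the 3 genes of smallest unadjusted p and the 2 of highest mean TPM, as well as the 5 genes most like *Vdr* and the 2 most like each other tested member. Some genes that this rule names are not reported here singly. Further genes were chosen after their values were seen. The members and lists were chosen with earlier results of these data known. Alternatives were a pseudocount of 0.1, no filter, quantile normalization, median-of-ratios rescaling, centring on 12 epithelial markers, the replicate number as a block, no trend, and each tumor left out in turn.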

Additional observations from a re-analysis of the deposited data

How the results depend on the processing

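No vitamin D gene passed the adjustment under any of the 13 alternatives. Of the 65 log2 fold changes of the 5 tested members, 58 kept their direction and stayed on the same side of the threshold, and 7 reversed. *Vdr* was higher in *VP* tumors throughout, from 0.27 with epithelial centring to 0.54, and from 0.31 to 0.54 with each tumor left out (limma adjusted p from 0.236 to 0.689). Its unadjusted limma p-value, 0.0228 in the main fit, did not stay under 0.05 throughout. It was 0.0853 without *Trp53fl/fl* replicate 1, 0.0776 without *VP* replicate 2 and 0.139 with epithelial centring, and under 0.05 in the other alternatives. *Rxra* turned to 0.043 with median-of-ratios rescaling, to 0.056 with quantile normalization and to 0.019 without *VP* replicate 3 (-0.055 to 0.019 with each tumor left out). *Trpv6* turned to 0.271 without *VP* replicate 1 (-0.528 to 0.271), and *S100g* ranged from -0.178 to 0.739, with -0.178 without *Trp53fl/fl* replicate 3, -0.047 without *VP* replicate 2 and -0.065 without *VP* replicate 3. *Atp2b1* ranged from -0.438 to -0.077. The cause of these reversals was not tested.

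Of all genes, 25 differed (12 higher and 13 lower in *VP* tumors), against 7 with no filter (4 and 3, with 27871 genes tested), 45 with epithelial centring (15 and 30), 22 with median-of-ratios rescaling (13 and 9) and 3 to 23 with each tumor left out. The lowest counts were 3 without *Trp53fl/fl* replicate 1, 5 without *VP* replicate 2, 7 without *VP* replicate 1, 9 without *Trp53fl/fl* replicate 3 and 14 without *Trp53fl/fl* replicate 2. Epithelial centring moved the median of all genes from -0.07 to -0.245, and with it the medians of the lists to -0.2 for the members, -0.092 for metabolism and transport of vitamin D, -0.302 for coregulators, -0.136 for calcium, phosphate and zinc transport, -0.068 for other VDR targets and -0.439 for peroxisomal enzymes. The median of coregulators was -0.06 with median-of-ratios rescaling, and that of other VDR targets 0.175, or 0.151 with quantile normalization. With each tumor left out, the medians ranged from -0.178 to 0.271 for the members, -0.179 to -0.102 for coregulators, -0.063 to 0.15 for calcium, phosphate and zinc transport and 0.035 to 0.161 for other VDR targets.

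Same-numbered tumors did not deviate together (correlations 0.0185, -0.052 and 0.0175, with no tumor most like its own number), so no pairing by number was detected. These correlations cannot show that the tumors are unpaired. With the replicate number as a block, 10 genes differed (7 higher and 3 lower), none of them a member, and *Vdr* kept 0.439 (limma adjusted p = 0.432). The depth is unknown, so what it limits cannot be given.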
